A study of Mus musculus with 9 samples.

Results

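The genes described here are 7 aldehyde dehydrogenases (Aldh3b2, Aldh3b1, Aldh3a2, Aldh1a1, Aldh1a3, Aldh2 and Aldh9a1) and the iron-containing alcohol dehydrogenase Adhfe1, in the salivary glands of mice. They were taken by symbol, and all 8 were found among the 23256 genes of the deposited tables. Their NCBI Gene identifiers in those tables are 621603 for Aldh3b2, 67689 for Aldh3b1, 11671 for Aldh3a2, 11668 for Aldh1a1, 56847 for Aldh1a3, 11669 for Aldh2, 56752 for Aldh9a1 and 76187 for Adhfe1. In the GRCm38.p6 assembly Aldh3b2, Aldh3b1 and Aldh1a1 lie on chromosome 19, Aldh3a2 on 11, Aldh1a3 on 7, Aldh2 on 5, and Aldh9a1 and Adhfe1 on 1. All 8 passed the filter on low counts that left 14912 genes to test. The 8 were chosen by name after the differences in level between these same groups of libraries had been seen; which of the 3 comparisons was used is not recorded. Their values are therefore a description, and their adjusted p-values only place them among all genes tested.

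RNA was sequenced from the glands labelled submandibular and sublingual of female C57BL/6 mice at 34 weeks of age, with 3 libraries in each of 3 groups. Control mice ate standard chow from 4 weeks of age. Diet-induced obese (DIO) mice received a diet with 60% of calories from fat for 20 weeks from the same age. Post-sleeve gastrectomy (SG) mice were DIO mice in which about 80% of the stomach was removed along its greater curvature at 24 weeks, under isoflurane after a fast of 12 hours. No sham operation is named, and the diet between the end of those 20 weeks and collection is not given for the DIO or the SG mice. Effects of surgery, fasting, anaesthesia and later diet cannot be told apart between SG and DIO. Nothing in the labels ties a library to an animal of its own, and the p-values measure only library-to-library spread, possibly technical.

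The libraries held 36349885 to 43495564 counted reads each, so that 3 counts correspond to 0.0690 to 0.0825 CPM (counts scaled to library size). Markers of the labelled glands were present in all 9: Prol1, a serous acinar secretory product, at 54865 to 103460 CPM, Muc19, the gel-forming mucin of mucous cells, at 891 to 2198 CPM, and Klk1, a kallikrein of the ducts, at 20491 to 34519 CPM. Control library 2 stood apart: its mean Spearman correlation with the others across genes was 0.973, against 0.985 to 0.987 for the other 8. It also had the highest summed CPM of the adipocyte list (180, against 37.7 to 65.2 elsewhere) and of the B cell list (145, against 4.17 to 38.0), and the most Amy1, the salivary amylase of parotid cells (8377 CPM, against 11.8 to 1673). Results are given with and without it.

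Aldehyde dehydrogenases oxidise aldehydes to carboxylic acids with a catalytic cysteine and NAD or NADP as electron acceptor. Members of the Aldh1a branch make retinoic acid from retinaldehyde, members of the Aldh3 branch act mainly on the longer aldehydes that arise from lipids, and mitochondrial Aldh2 clears acetaldehyde and products of lipid peroxidation. Adhfe1 belongs to another enzyme family. It is a mitochondrial transhydrogenase that passes electrons from gamma-hydroxybutyrate to alpha-ketoglutarate.

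The sequence around the catalytic cysteine shows how the members group. Each line below gives 63 coding bases, 5′ to 3′, from GENCODE M21 transcripts (GRCm38), with the cysteine codon in capitals and 10 codons on each side.
Aldh3b2: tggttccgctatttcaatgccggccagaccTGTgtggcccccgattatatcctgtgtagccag
Aldh3b1: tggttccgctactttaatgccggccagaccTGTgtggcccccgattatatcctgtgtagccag
Aldh3a2: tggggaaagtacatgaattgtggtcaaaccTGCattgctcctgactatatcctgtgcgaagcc
Aldh1a1: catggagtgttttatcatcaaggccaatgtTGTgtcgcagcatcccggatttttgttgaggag
Aldh1a3: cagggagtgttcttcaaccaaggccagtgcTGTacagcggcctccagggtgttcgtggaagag
Aldh2: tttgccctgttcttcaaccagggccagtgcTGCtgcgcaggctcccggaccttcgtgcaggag
Aldh9a1: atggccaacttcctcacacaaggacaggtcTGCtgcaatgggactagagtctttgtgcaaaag
Aldh3b2 and Aldh3b1 differed at 2 of these 63 bases, while Aldh3b2 and Aldh3a2 differed at 27. Aldh1a1 differed from Aldh1a3 at 19 bases and from Aldh2 at 23. Adhfe1 held no such stretch. Over the whole coding sequence, Aldh3b2 shared 83.1% of aligned bases with Aldh3b1 and 58.6% with Aldh3a2, Aldh1a1 shared 67.4% with Aldh1a3, and Adhfe1 shared 48.3% to 50.3% with each of the other 7.

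For Aldh1a1 and Aldh3b2 the closest of the genes compared is a near copy outside the 8. Aldh1a7 lies beside Aldh1a1 on chromosome 19 of the GRCm38.p6 assembly and shares 91.6% of 1506 coding bases with it. Aldh3b3 lies beside Aldh3b2 on the same chromosome, shares 89.7% of 1440 coding bases, and is identical to it across the 63 bases around the cysteine codon. The first 120 coding bases show how differently the differences are spread in these pairs, with each base that differs within a pair in capitals.
Aldh1a1: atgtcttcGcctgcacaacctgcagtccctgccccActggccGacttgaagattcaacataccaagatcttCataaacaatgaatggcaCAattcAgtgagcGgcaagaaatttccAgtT
Aldh1a7: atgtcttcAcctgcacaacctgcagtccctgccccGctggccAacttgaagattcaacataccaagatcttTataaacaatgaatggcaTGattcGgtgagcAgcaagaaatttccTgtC
Aldh3b2: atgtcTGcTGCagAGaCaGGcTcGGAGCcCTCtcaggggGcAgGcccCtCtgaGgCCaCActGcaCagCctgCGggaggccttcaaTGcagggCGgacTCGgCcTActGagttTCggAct
Aldh3b3: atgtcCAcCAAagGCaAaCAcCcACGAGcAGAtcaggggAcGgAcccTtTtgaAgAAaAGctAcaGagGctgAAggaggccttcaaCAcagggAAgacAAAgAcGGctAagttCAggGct
The Aldh1a pair differed at 10 of these bases and the Aldh3b pair at 48. Aldh3b1 was also closer to Aldh3b3 (85.1% of aligned coding bases) than to Aldh3b2 (83.1%). Of all 100-base windows in the transcript of Aldh3b2, 14.0% also occurred in that of Aldh3b3, and of those of Aldh1a1, 0.0512% occurred in that of Aldh1a7. With 50-base windows these shares were 23.5% and 7.5%. Aldh3b1 shared 6.5% of its 50-base windows and 0% of its 100-base windows with Aldh3b2. How reads that match both copies were counted is not given in the sources used here, so the counts of Aldh1a1 and Aldh3b2 are uncertain to that extent.

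Levels can be compared between genes only per length, and the deposited FPKM, fragment counts scaled to gene length and library total, serves for that. Aldh2 had the highest FPKM of the 8, with a mean of 62.0 over the 9 libraries (56.7 to 69.4). Aldh3b2, a lipid-aldehyde dehydrogenase known from lipid droplets, followed at 32.6 (26.4 to 41.8), and Aldh9a1, which makes the carnitine precursor gamma-butyrobetaine, at 22.3 (19.5 to 26.8). The ranges of these last genes touched, yet Aldh3b2 was above Aldh9a1 in 9 of 9 libraries.

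Aldh3a2, the fatty aldehyde dehydrogenase of the endoplasmic reticulum, and Aldh1a1 had nearly the same FPKM, with means of 13.2 (12.0 to 14.2) and 13.01 (11.5 to 15.96). Their ranges overlapped, and Aldh3a2 was the higher in 5 of 9 libraries. Adhfe1 at 5.55 (4.32 to 6.85) and Aldh1a3 at 4.77 (3.85 to 6.34) overlapped as well, with Adhfe1 higher in 6 of 9. Aldh3b1 stood lowest at 0.760 FPKM (0.496 to 1.10), below every other member in every library. The order depends on the length used: the deposited FPKM of Aldh3a2 implies 7829 bases, while its principal GENCODE transcript has 3091, and in CPM, which is not per length, it came second to Aldh2.

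**Figure D1:**
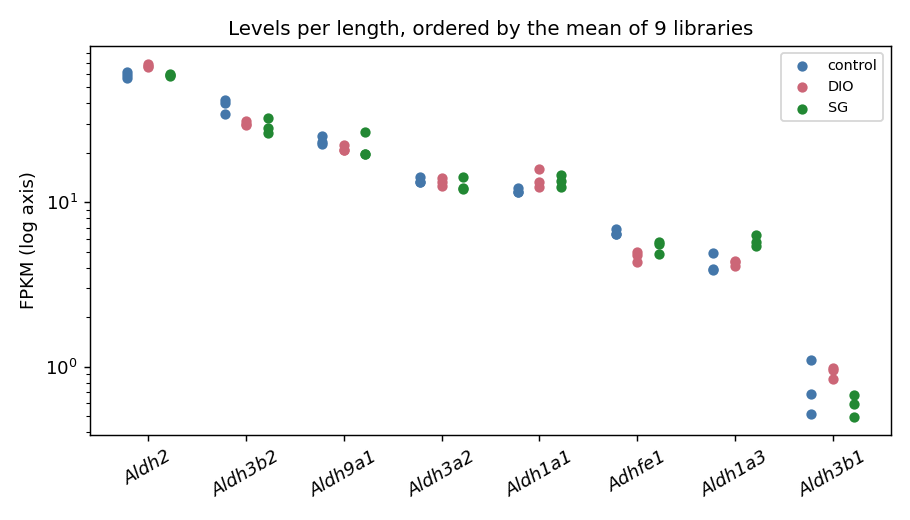
FPKM of the 8 genes in each library, on a log axis, ordered by their mean over 9 libraries; each point is 1 library, coloured by group. Aldh2 lies above the rest at 56.7 to 69.4 FPKM and Aldh3b1 below the rest at 0.496 to 1.10 FPKM.

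Across the groups, the comparison of DIO with control glands showed 0 of the 8 genes past the threshold (edgeR's quasi-likelihood test, Benjamini-Hochberg adjusted p under 0.05), against 0.0939% of all genes tested (14 of 14912). An unadjusted p under 0.05 was reached by 3 of 8, Adhfe1, Aldh3b2 and Aldh9a1, against 10.3% of all genes. By DESeq2, 2 of the 8 passed, Adhfe1 and Aldh3b2, against 1.3% of all genes. Without control library 2, these 2 also passed in edgeR, against 0.928% of all genes. With no filter on low counts 1 passed in edgeR, Adhfe1, against 0.159% of all genes. In 3 of 8 genes the fitted difference was positive and in 5 negative, and the median log2 fold change was -0.10, beside 0.0083 for all genes tested. In 4 of 8, the 3 DIO and 3 control libraries did not overlap in CPM, against 16.3% of all genes.

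Comparing SG with DIO, again 0 of 8 passed in edgeR, where 0 of 14912 genes (0%) did. Those with an unadjusted p under 0.05 were 2 of 8, Aldh1a3 and Adhfe1, against 8.93% of all genes. Aldh1a3 alone passed by DESeq2, against 0.577% of all genes, and 0 of 8 in edgeR without control library 2, against 0.775%. The median log2 fold change of the 8 was 0.03, with 6 positive and 2 negative, and -0.0047 over all genes. In 3 of 8 genes the groups did not overlap, against 16.3% of all genes.

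Between SG and control, 0 of 8 passed in edgeR (0% of all genes), 0 by DESeq2 (0.382% of all genes) and 0 in edgeR without control library 2 (0.0199% of all genes). An unadjusted p under 0.05 was found for 3 of 8, Aldh1a3, Aldh3b2 and Adhfe1, against 8.1% of all genes. In this comparison 2 differences were positive and 6 negative, with a median of -0.11 beside 0.0012 over all genes, and the groups did not overlap in 4 of 8 genes, against 11.8% of all genes. The 3 comparisons share libraries in pairs, so they are not independent of each other.

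**Figure D2:**
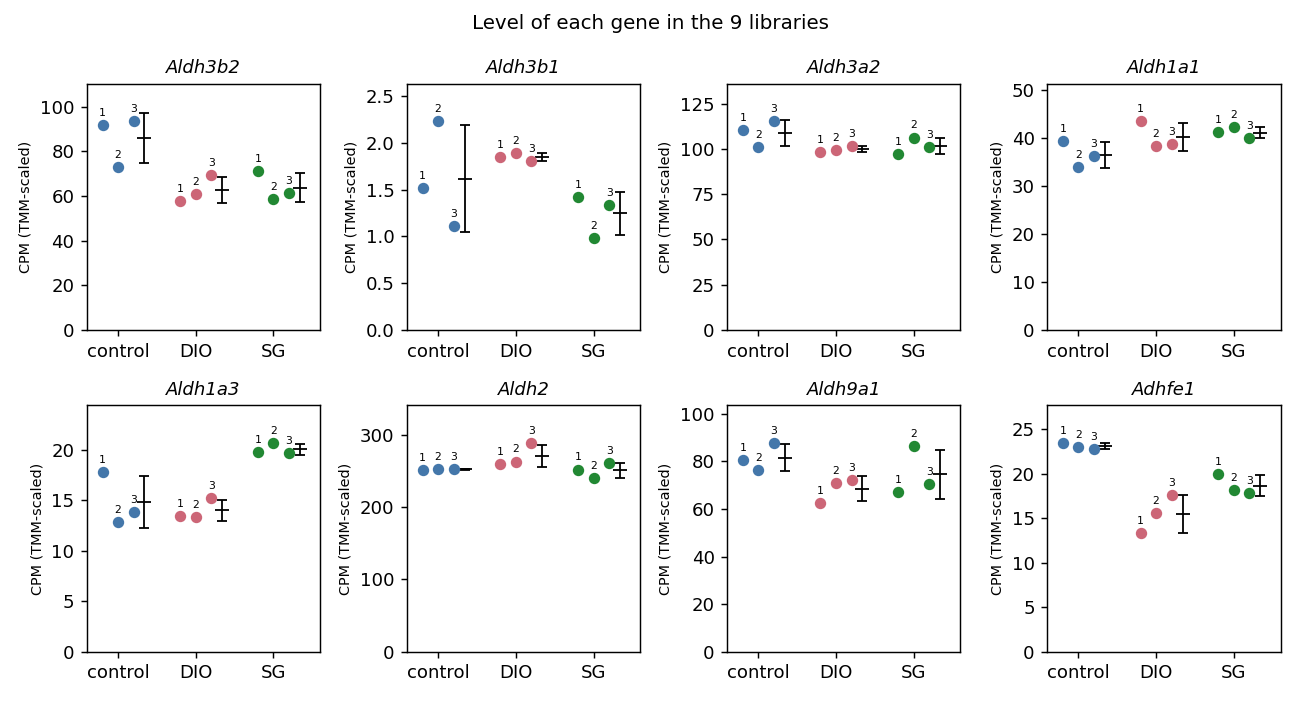
CPM of each gene (scaled by edgeR's TMM factors) in every library; points carry the replicate number, and the bar beside each group gives its mean and SD (n = 3). The control points of Adhfe1, at 22.8 to 23.4 CPM, lie above all DIO points, at 13.3 to 17.6, and the SG points of Aldh1a3, at 19.7 to 20.7, lie above all others.

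Adhfe1 had the largest DIO-control difference of the 8. It stood at 23.4, 22.9 and 22.8 CPM in control libraries 1, 2 and 3, at 13.3, 15.6 and 17.6 CPM in the DIO libraries and at 20.0, 18.1 and 17.8 CPM in the SG libraries. The 3 groups did not overlap: every control library was above every SG library, and every SG library above every DIO library, the closest pair being DIO 3 and SG 3. Group means were 23.0 ± 0.344 (SD, n = 3) in control, 15.5 ± 2.16 in DIO and 18.6 ± 1.16 in SG.

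The fitted log2 fold change of Adhfe1 from control to DIO was -0.57 (SE 0.11, 95% interval -0.81 to -0.34), a ratio of 0.671, with an adjusted p of 0.0980 by edgeR's quasi-likelihood test. Its p-value ranked 31st of the 14912. The adjusted p was 0.000943 by DESeq2, 0.0432 in edgeR with no filter on low counts and 0.0468 in edgeR without control library 2, where the log2 fold change was -0.60. For SG against DIO the value was 0.27 (SE 0.11, interval 0.03 to 0.50, edgeR adjusted p 0.514), and for SG against control -0.31 (SE 0.11, interval -0.54 to -0.07, adjusted p 0.563). Adhfe1 in SG thus averaged between the other groups, without passing the test against either. These intervals, here and below, are for a single gene and are not widened for how the genes were chosen.

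Among the dehydrogenases of lipid aldehydes, Aldh3b2 averaged 86.1 ± 11.4 CPM (SD, n = 3) in control, 62.7 ± 5.98 in DIO and 63.8 ± 6.65 in SG. The libraries read 91.7, 73.0 and 93.5 in control, 57.8, 60.8 and 69.3 in DIO, and 71.3, 58.8 and 61.2 in SG. All 3 control libraries lay above all 6 others, with control 2 only a little above SG 1, and DIO and SG overlapped throughout. The log2 fold change was -0.46 from control to DIO (SE 0.12, interval -0.72 to -0.19, edgeR adjusted p 0.230) and -0.43 from control to SG (SE 0.12, interval -0.70 to -0.17, adjusted p 0.498). From DIO to SG it was 0.03, with an interval of -0.24 to 0.29.

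Control 2 had the lowest control value of Aldh3b2. Without that library the control mean was 92.6 CPM (n = 2), and the log2 fold change from control to DIO was -0.59 with an edgeR adjusted p of 0.0300. DESeq2 on all 9 libraries gave -0.48 and an adjusted p of 0.0222. From control to SG the edgeR value without control 2 was -0.55, with an adjusted p of 0.283.

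Its close relative Aldh3b1, a membrane-bound enzyme with similar substrates, was counted only 38 to 99 times per library. The levels were 1.52, 2.23 and 1.11 CPM in control, 1.84, 1.89 and 1.81 CPM in DIO, and 1.42, 0.987 and 1.33 CPM in SG. The control libraries lay on either side of all DIO libraries and overlapped the SG libraries, while SG lay below DIO without overlap. From DIO to SG the log2 fold change was -0.56, but its interval of -1.24 to 0.12 reached past 0 (edgeR adjusted p 0.639). From control to DIO the value was 0.19 (interval -0.48 to 0.86), and it was -0.02 without control library 3 and 0.47 without control library 2. The sign of the control-DIO difference of Aldh3b1 was therefore not settled at this depth. Aldh3b1 shares 6.5% of its 50-base windows with Aldh3b2, which had 2205 to 3888 counts per library. The part of shared reads in the low counts of Aldh3b1 was not tested.

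Aldh3a2 varied least among these lipid-aldehyde enzymes, between 97.5 and 115 CPM over all 9 libraries. Group means were 109 ± 7.17 in control, 99.8 ± 1.63 in DIO and 102 ± 4.47 in SG (SD, n = 3). Log2 fold changes were -0.13 for DIO against control (interval -0.31 to 0.05), 0.03 for SG against DIO (interval -0.15 to 0.20) and -0.10 for SG against control (interval -0.28 to 0.08). As a ratio of DIO to control, the interval ran from 0.809 to 1.04.

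Of the retinaldehyde dehydrogenases, Aldh1a3 was the member whose SG libraries stood apart. It measured 17.7, 12.8 and 13.8 CPM in control, 13.4, 13.3 and 15.2 CPM in DIO, and 19.8, 20.7 and 19.7 CPM in SG. All SG libraries were above all 6 others, and control 1 came nearest to them. Means were 14.8 ± 2.59 in control, 14.0 ± 1.06 in DIO and 20.0 ± 0.550 in SG (SD, n = 3).

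From DIO to SG the log2 fold change of Aldh1a3 was 0.52 (SE 0.12, interval 0.25 to 0.79), a ratio of 1.43, with an edgeR adjusted p of 0.332. The adjusted p was 0.0385 by DESeq2 and 0.0339 in edgeR when only the DIO and SG libraries were fitted, a fit in which 1.24% of all genes passed. Without control library 2 it was 0.0517. From control to SG the value was 0.44 (SE 0.12, interval 0.17 to 0.70, adjusted p 0.498), or 0.33 without control 2. DIO and control overlapped, with a log2 fold change of -0.08 (interval -0.35 to 0.19). It was 0.07 without control library 1 and 0.01 with library totals in place of TMM, so it has no settled sign.

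Aldh1a1 lay within a narrow band of 33.9 to 43.4 CPM, with means of 36.4 ± 2.69 in control, 40.1 ± 2.89 in DIO and 41.1 ± 1.16 in SG (SD, n = 3). The SG libraries, at 39.8 to 42.1 CPM, were above the control libraries, at 33.9 to 39.3 CPM, with a gap smaller than the spread within control. The log2 fold change was 0.17 for SG against control (interval -0.01 to 0.36, edgeR adjusted p 0.639) and 0.14 for DIO against control (interval -0.05 to 0.32, adjusted p 0.613).

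Its copy Aldh1a7 had more counts in every library and another pattern. It averaged 56.9 ± 3.34 CPM in control, 68.0 ± 9.38 in DIO and 54.8 ± 5.42 in SG (SD, n = 3). Its log2 fold change was 0.26 from control to DIO (SE 0.11, edgeR adjusted p 0.472) and -0.31 from DIO to SG (SE 0.11, adjusted p 0.495). Aldh1a1 supplied 33.0% of the counts of the pair in DIO 2 and 46.4% in SG 2, the lowest and highest shares. Summed over both copies, the level was 93.3 ± 6.01 CPM in control, 108 ± 6.91 in DIO and 95.9 ± 4.75 in SG. This sum is free of the question of where shared reads went only if each was counted for a single copy, which is not known. Aldh3b3, the copy of Aldh3b2, had 0 to 6 counts per library beside 2205 to 3888 for Aldh3b2 and was not tested.

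Mitochondrial Aldh2 was the steadiest of the 8 among the control libraries, at 251, 252 and 253 CPM. DIO libraries read 260, 263 and 288 CPM and SG libraries 252, 240 and 261 CPM. All DIO libraries were above all control libraries, and DIO 1 at 260 CPM lay below SG 3 at 261 CPM. The log2 fold change was 0.10 from control to DIO (interval -0.09 to 0.29, edgeR adjusted p 0.736) and -0.0065 from control to SG (interval -0.20 to 0.19).

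On the FPKM scale, which divides by library totals and not by TMM library sizes, Aldh2 was 59.1 ± 2.58 in control, 67.6 ± 1.61 in DIO and 59.4 ± 0.835 in SG (SD, n = 3). There DIO overlapped neither other group. With library totals in the edgeR fit the log2 fold change from control to DIO was 0.19 (adjusted p 0.419), and the same scaling moved the median of all genes to 0.10. The part of the Aldh2 difference above that median was thus about as large under either scaling.

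Aldh9a1, at 80.6, 76.3 and 87.7 CPM in control and 62.4, 71.1 and 72.3 CPM in DIO, did not overlap between these groups. In SG it ranged from 67.0 to 86.4 CPM and overlapped both. The log2 fold change from control to DIO was -0.25 (SE 0.11, interval -0.49 to -0.01, edgeR adjusted p 0.477), and without control 2 it was -0.32 (adjusted p 0.248). SG differed from control by -0.13 (interval -0.37 to 0.12) and from DIO by 0.12 (interval -0.12 to 0.37). The highest SG library, SG 2, also had 36.8 CPM in sum of the skeletal muscle list, against 2.77 to 4.74 CPM in the other 8. The part of that in the Aldh9a1 value was not tested.

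**Figure D3:**
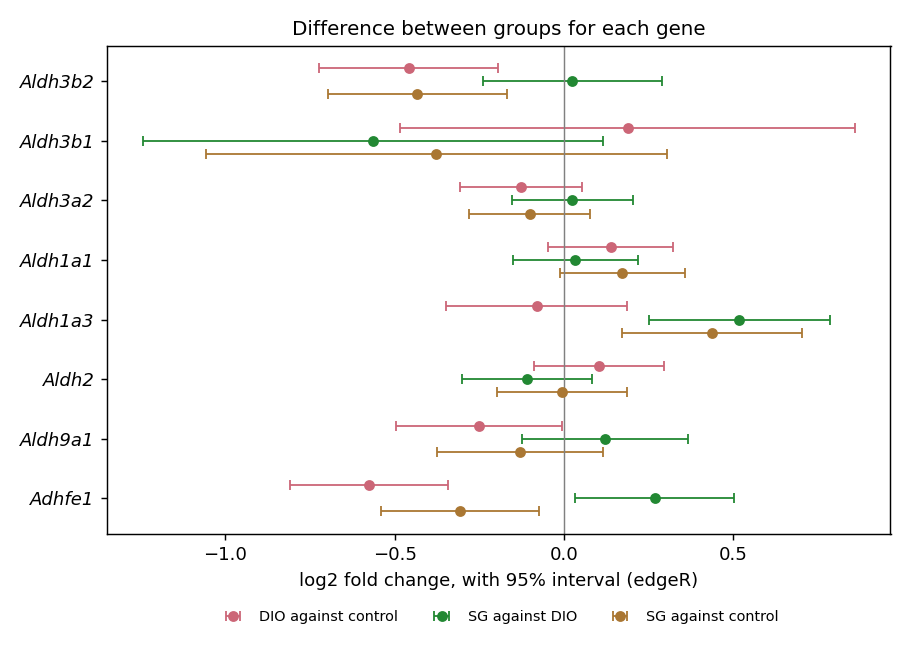
Log2 fold change of each gene in the 3 comparisons, from edgeR's fit of all 9 libraries; bars are 95% intervals of the single gene. Adhfe1 (-0.57) and Aldh3b2 (-0.46) lie farthest below 0 for DIO against control, and Aldh1a3 (0.52) farthest above 0 for SG against DIO.

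The 3 members with the smallest p were picked from these same libraries, and in the comparisons given here their groups did not overlap. Leaving out a single library could therefore hardly turn their sign, and the ranges that follow describe size only. Leaving out each of the 9 libraries in turn kept the DIO-control difference of Adhfe1 between -0.68 and -0.49 and that of Aldh3b2 between -0.59 and -0.39. The SG-DIO difference of Aldh1a3 stayed between 0.50 and 0.58. Of these 9 fits, only the one without control 2 took a member past the threshold. Without it, 6 of the 8 genes no longer overlapped between DIO and control, the additional ones being Aldh3b1 and Aldh3a2, against 32.1% of all genes, since 3 against 2 libraries separate more often. Between SG and control 5 of 8 then did not overlap, Aldh3a2 being the additional one, against 21.5% of all genes.

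**Figure D4:**
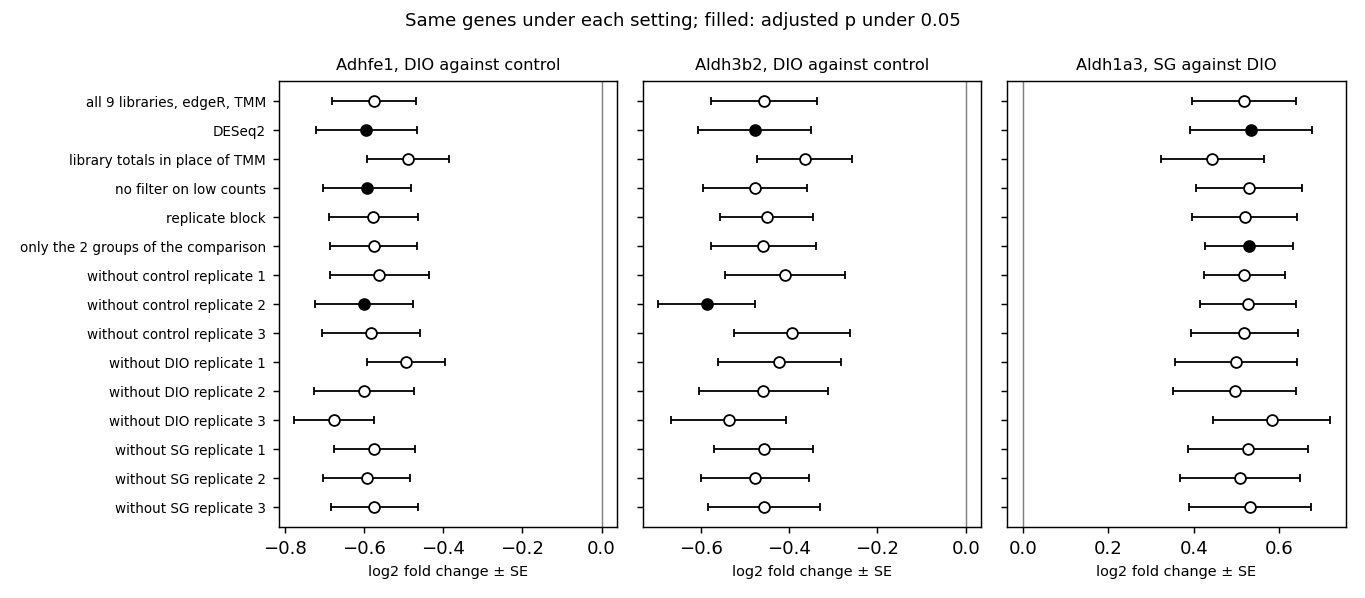
Log2 fold change ± SE of Adhfe1 and Aldh3b2 (DIO against control) and Aldh1a3 (SG against DIO) under each way of fitting; filled points have an adjusted p under 0.05. Adhfe1 ranges from -0.68 to -0.49, Aldh3b2 from -0.59 to -0.36 and Aldh1a3 from 0.44 to 0.58.

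In bulk glands, fewer cells of a type and less RNA per cell cannot be told apart, so markers of cell types were read beside Adhfe1, Aldh3b2 and Aldh1a3. By edgeR 0 of 98 tested marker genes passed in any comparison, with an unadjusted p under 0.05 in 19 (19.4%) for DIO against control, 22 (22.4%) for SG against DIO and 30 (30.6%) for SG against control. The same shares over all genes were 10.3%, 8.93% and 8.1%. DESeq2 passed 2 of the 98 for DIO against control, the macrophage genes C1qa and C1qb, against 1.3% of all genes. It passed 0 for SG against DIO (0.577% of all genes) and 1 for SG against control, the lymphoid chemokine gene Ccl21a (0.382% of all genes). Of the 7 macrophage markers, 4 were higher and 3 lower in DIO than in control, and their sums overlapped (191 to 253 CPM in DIO, 121 to 298 in control). Of the 6 parotid acinar markers, 6 were lower in DIO than in control (median log2 fold change -3.43), 6 were higher in SG than in DIO, and 0 passed the test. The list summed to 64740 to 83035 CPM among controls, 42682 to 56821 with DIO and 52818 to 67385 after SG, so that DIO lay below control without overlap. Amy1 stood at 1673, 8377 and 412 CPM in control, 240, 12.3 and 101 CPM in DIO, and 1673, 11.8 and 48.5 CPM in SG. It was a small part of the parotid sums, which mostly reflect other genes of the list. Within SG, the library with the most Amy1, SG 1, was the highest in Adhfe1 and Aldh3b2 but had the lowest sum of the whole list. Within control, the library with the most Amy1, control 2, was the lowest in Aldh3b2. The part of parotid tissue in the 2 differences was not tested.

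Summed levels of the serous list ranged over 115787 to 124105 CPM among controls, 82917 to 114797 with DIO and 106971 to 128530 after SG, so that DIO lay below control without overlap, as Adhfe1 and Aldh3b2 did. Prol1 made up a large part of these sums, which therefore do not weigh the 7 markers of the list equally. Of these 7 markers, 2 were higher and 5 lower in DIO than in control. None passed the test (7 of 7 tested, smallest adjusted p 0.352, for Bpifa2 in DIO against control, edgeR). Bpifa2 is also on the parotid list, so the serous and parotid sums share a gene. The part of serous cells in the result was not tested either. Endothelial markers also lay lower in DIO (63.8 to 68.2 CPM) than in control (72.7 to 96.0 CPM) without overlap, and red blood cell markers higher (66.3 to 127 CPM against 43.1 to 66.0 CPM). Adipocyte markers summed to 40.5, 180 and 55.9 CPM in the controls, to 37.7 to 65.0 with DIO and 41.3 to 65.2 after SG. In control 2, the library with the highest adipocyte sum, Aldh3b2 was the lowest of the controls and Aldh1a3 the lowest of all 9 libraries, while Adhfe1 lay between its values in the other controls. The part of adipocyte, endothelial or blood cell content in these values was not tested.

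The striated and excretory duct list, like Aldh1a3, was higher in SG than in both other groups without overlap. Its 7 genes summed to 1469 to 1648 CPM among controls, 1472 to 1564 with DIO and 1674 to 1911 after SG. Within SG the sum was highest in SG 1 and Aldh1a3 in SG 2. From control to DIO, 5 of the 7 genes had positive differences (median log2 fold change 0.25), where Aldh1a3 had -0.08. From DIO to SG, 5 of the 7 had positive differences (median 0.12, where Aldh1a3 had 0.52) and 0 passed the test. Granular duct markers overlapped in sum between all groups, at 21786 to 38031 CPM, most of it from Klk1. Gene by gene, 6 of these 7 were higher and 1 lower in DIO than in control (median log2 fold change 0.39). In SG, 6 were higher and 1 lower than in control (median 0.58), and 5 higher and 2 lower than in DIO (median 0.05). Of these markers 0 passed the test. From DIO to SG the summed levels of the B cell, T cell and brown adipocyte lists were lower without overlap: 16.4 to 38.0 CPM against 4.17 to 10.2 for B cells, 6.21 to 16.5 against 1.97 to 2.53 for T cells, and 8.35 to 11.7 against 5.05 to 8.02 for brown adipocytes. Whether the share of duct or other cells contributes to the Aldh1a3 difference was not tested.

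Other genes of the pathways were read from 8 lists, of which 81 genes were tested. By edgeR's test over all genes 0 of 81 passed, in either direction, in each of the 3 comparisons. An unadjusted p under 0.05 was reached by 11 of them (13.6%) for DIO against control, 14 (17.3%) for SG against DIO and 11 (13.6%) for SG against control, beside 10.3%, 8.93% and 8.1% of all genes. By DESeq2, 1 of 81 passed, Cbr2, a carbonyl reductase, for SG against DIO, where 0.577% of all genes did (edgeR log2 fold change 0.65, edgeR adjusted p 0.411). Of 14 other aldehyde dehydrogenases 12 were tested: 4 were positive and 8 negative from control to DIO (median log2 fold change -0.12), and 7 and 5 from DIO to SG, with a median of 0.03. All 4 alcohol dehydrogenases tested were positive from control to DIO (median 0.20), as were 51.7% of all genes. Adh1 (0.03) and Adh5 (0.04) were near 0, while Adh6a (0.37) and Adh7 (0.87) had group means of only 0.296 to 0.853 CPM. From DIO to SG, 2 of the 4 were positive and 2 negative. All 4 tested genes of carnitine and GABA turnover were negative from control to DIO (median -0.31), and 3 were positive and 1 negative from DIO to SG. The 13 tested aldo-keto and carbonyl reductases had medians of -0.14 and then 0.14, and the 13 of fatty aldehyde and ether lipid turnover -0.09 and 0.02.

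The retinoid list, the pathway in which Aldh1a1 and Aldh1a3 act, had 18 of 24 genes tested, with 11 positive and 7 negative from DIO to SG and a median of 0.07. Its member with the smallest p was Dhrs3, a reductase that turns retinaldehyde back to retinol and is known to be induced by retinoic acid. Dhrs3 averaged 32.6 ± 0.911 CPM in control, 35.9 ± 2.85 in DIO and 43.2 ± 4.54 in SG (SD, n = 3). All SG libraries, at 39.5, 41.8 and 48.2 CPM, were above all 6 others, as for Aldh1a3. The log2 fold change from control to SG was 0.40 (SE 0.09) with an edgeR adjusted p of 0.427.

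The carbonyl reductase Cbr3 averaged 7.999 ± 1.10 CPM in control, 6.97 ± 0.394 in DIO and 5.52 ± 0.114 in SG, with a log2 fold change from control to SG of -0.54 (edgeR adjusted p 0.487). Bdh1, the mitochondrial enzyme of ketone body turnover, averaged 14.9 ± 1.31, 13.8 ± 1.93 and 10.7 ± 1.06 CPM in the same order, with -0.48 (adjusted p 0.487). For both, all SG libraries were below all others. Rbp4, the carrier of retinol in blood, rested on 1 library: control 2 had 17.7 CPM and the other 8 had 0.0254 to 0.361 CPM.

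**Figure D5:**
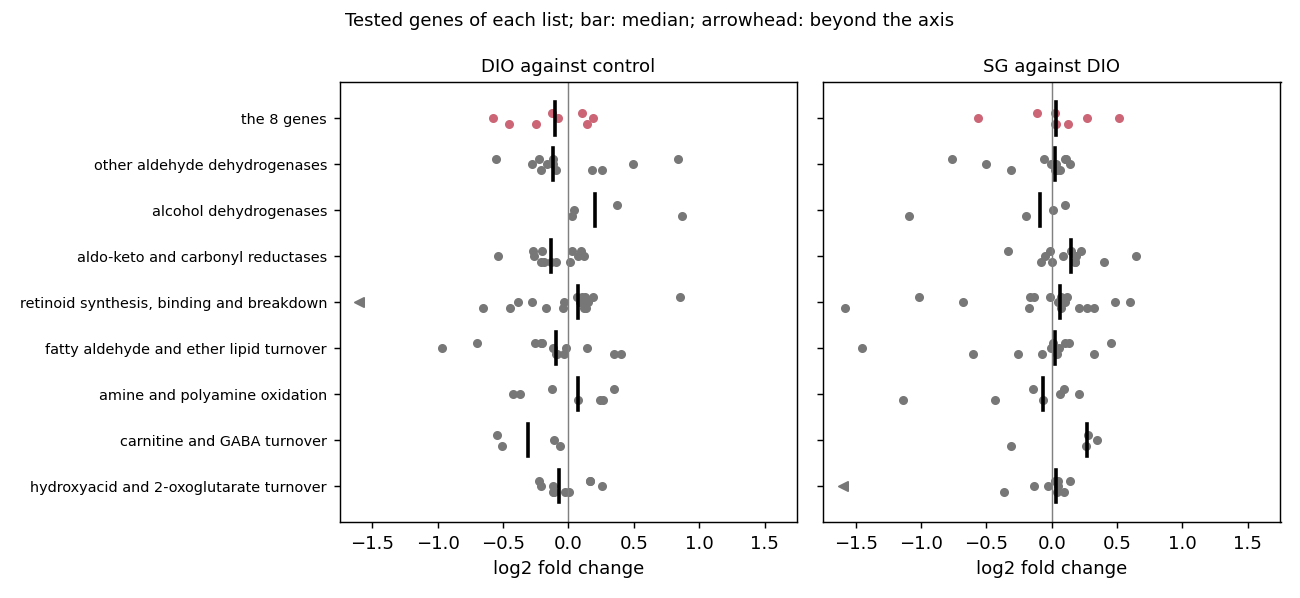
Log2 fold change of every tested gene of the 8 enzymes and of 8 pathway lists, for DIO against control and SG against DIO; bars are medians, and arrowheads mark genes beyond the axis. The median of the 8 genes is -0.10 and then 0.03, and no plotted gene passed the threshold.

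Between members, levels over the 9 libraries followed each other in some pairs. Pearson's r of log2 CPM was 0.83 for Adhfe1 with Aldh3b2 (0.87 without control 2) and 0.87 for Aldh9a1 with Aldh3a2, while Adhfe1 and Aldh1a3 gave 0.14. These 9 points share the 3 groups and the scaling of each library, so the values are a description only. Among 11037 genes with a mean of at least 2 CPM, the patterns most like Adhfe1 were those of Ttpa (r = 0.97), Pam (0.96) and Ccdc162 (0.95). Ttpa, the alpha-tocopherol transfer protein, averaged 7.03 CPM in control, 4.30 in DIO and 5.18 in SG.

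For Aldh1a3 the most alike were Aktip (r = 0.92), Mindy3 (0.91) and Six2 (0.90). Those most like Aldh3b2 were Agfg2, Dgki and Acadsb, all at an r of 0.91 or 0.90. Of these 9 genes Dgki, a diacylglycerol kinase, was the only one past the threshold, from control to DIO: it averaged 25.2, 6.85 and 10.3 CPM in control, DIO and SG, with a log2 fold change of -1.88 and an edgeR adjusted p of 0.00398.

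Promoters (RefSeq, GRCm38.p6, 250 bases before to 50 after the start) were at hand for 4 members, Aldh9a1, Aldh3a2, Aldh3b1 and Aldh1a1. CACGTG, the E-box, occurred on either strand in that of Aldh3a2 and in 7.15% of all 32851 promoters. TGACNNNGC, the core of the antioxidant response element, occurred in that of Aldh9a1 and in 12.4% of all. TTATGTAA, the D-box, occurred in none of the 4 and in 0.938% of all. A match describes the letters only.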

How the data were processed

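Polyadenylated RNA from 9 libraries was measured by RNA sequencing. The authors deposited whole-number read counts per gene and FPKM; per the submitters' processing notes, GRCm39, HISAT2 and Salmon were used, with no versions or roles stated. The deposited FPKM and counts implied 1 length per gene (within 0.1% for 21021 of 21021 genes). Counts were fitted with edgeR 4.0.16 in R 4.3.3 (TMM scaling, filterByExpr, quasi-likelihood F test, 9 libraries in 1 fit, Benjamini-Hochberg over 14912 genes, threshold 0.05; residual df 6). The genes tested held at least 99.79% of each library's counts. CPM use TMM library sizes. DESeq2 1.42.0, library totals, no filter, a replicate block, fits of 2 groups and leaving out each library were alternatives. Aligned coding bases came from Biopython 1.88.

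The members and lists were chosen with earlier results of these data known. Genes named beside the 8 were the 4 pathway genes with the smallest p (as none passed), both near copies, and, for the 3 members with the smallest p, the 3 genes with the highest correlation. Prol1, Muc19, Klk1, Amy1, Bpifa2, C1qa, C1qb, Ccl21a, Cbr2, Adh1, Adh5, Adh6a and Adh7 were named from the lists after their values were seen. In simulated counts for DIO against control (14716 genes), 42% of 100 genes changed 1.5-fold and 96% of 100 changed 3-fold were recovered, with 0.0896% of unchanged genes called. The changed genes were drawn above a minimum mean level that Aldh3b1 did not reach. More changed genes make the adjusted threshold easier to pass, and in the real libraries 14 passed, so these shares may be too high for the members.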

Additional observations from a re-analysis of the deposited data

How the results depend on the processing

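Of 336 values recomputed under another setting, 319 kept their direction and their side of the threshold, 7 newly passed it, 10 turned direction and 0 lost a call. The count of the 8 genes past the threshold for DIO against control was 0, and became 2 with DESeq2, 1 with no filter on low counts, and 0 to 2 on leaving out single libraries (2 without control library 2). For SG against DIO it was 0, and became 1 with DESeq2 and 1 when only those 2 groups were fitted; for SG against control it was 0 in every setting. The members that newly passed were Adhfe1, Aldh3b2 and Aldh1a3; the cause was not tested.

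The counts of all genes past the threshold moved by more than 1.5 times as well: for DIO against control from 14 to 194 with DESeq2, 37 with no filter, 22 with library totals, 4 with 2 groups, 140 without control 2 and 0 to 17 without any other single library. For SG against DIO it went from 0 to 86 with DESeq2, 6 with no filter, 179 with 2 groups and 117 without control 2. For SG against control it went from 0 to 57 with DESeq2, 3 with no filter, 3 without control 2, 6 without SG 1 and 1 without SG 3. With library totals in place of TMM, 17 genes passed as higher and 5 as lower for DIO against control, against 8 and 6 with TMM, and the median of all genes shifted to 0.10 there and to -0.08 for SG against DIO.

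The values that turned direction were all near 0. With library totals these were Aldh1a3 from control to DIO (0.015), Aldh3b2 (-0.050), Aldh3a2 (-0.052) and Aldh1a1 (-0.048) from DIO to SG, and Aldh2 from control to SG (0.0050). On leaving out single libraries, Aldh1a3 from control to DIO ranged from -0.20 to 0.070 (above 0 without control 1), Aldh3b1 from -0.023 to 0.47 (below 0 without control 3), Aldh3b2 from DIO to SG from -0.062 to 0.10 (below 0 without DIO 1, -0.019, or SG 1), and Aldh2 from control to SG from -0.035 to 0.020 (above 0 without SG 2). The cause was not tested.

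With the replicate number as a block, 0 of the 8 genes passed in any of the 3 comparisons, and 18 in place of 14 genes passed for DIO against control. Whether the numbers pair the samples is not settled. The deviations of same-numbered libraries correlated at -0.09 to 0.31, over 0.1 in 3 of 9 pairs, while the own number gave the highest correlation in 7 of 9. With 3 libraries a group, 42% of 1.5-fold differences were recovered in simulated data, whose changed genes were drawn above the mean level of Aldh3b1. A missed threshold at that size therefore does not show that groups are alike.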
